A study of Mus musculus with 8 samples.

Results

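Connexins are the membrane proteins that build gap junctions, the channels through which neighbouring cells exchange ions and small molecules. The 6 connexin genes described here, *Gja1*, *Gja4*, *Gjb2*, *Gjb5*, *Gjb6* and *Gjc1*, were chosen by name, and all 6 were among the 23358 genes of the table. Connexin subunits join into a ring in the membrane of each cell, and rings of adjoining cells dock to form the channel. Connexins of the alpha and gamma groups serve heart, vessels, bone and many other tissues, whereas the beta connexins are typical of stratified epithelia, the hair follicle and the inner ear. In the tooth, the *Gja1* product joins ameloblasts and odontoblasts, and mutations of the human gene are known for enamel defects.

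RNA was sequenced from the cervical loop at the base of the ever-growing incisor of mice 4 weeks old, with dental epithelial stem cells residing in its head (CLH) and their progenies in its tail (CLT). *Med1* conditional null (cKO) mice had *Med1* alleles with floxed exons 8 to 10 and Cre recombinase under the *Krt14* promoter. By this design the exons were to be removed in *Krt14*-expressing epithelium and its descendants. Ctrl mice were littermates without Cre, all mice were of the C57BL/6 strain, and tissues came from 2 litters. Each of the 4 groups (Ctrl CLH, cKO CLH, Ctrl CLT and cKO CLT) had 2 libraries, which the labels name as dental epithelial cells of incisors. For the RNA-seq a supplementary legend gives 6 pooled cervical loop tissues per group. How these were divided between the RNA-seq libraries, and from how many mice, is not given in the sources used here (for RT-qPCR a legend gives 3 mice for 6 tissues), and sexes were not distinguished.

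Levels are given in RPKM, the reads of a gene divided by its length and by the library total, a scale on which genes of different length can be compared. Library totals recovered from the RPKM were 34420180 and 26877439 reads for Ctrl CLH, 33753953 and 29557246 for cKO CLH, 29257705 and 26591612 for Ctrl CLT, and 28035759 and 27276258 for cKO CLT. At these depths *Gja1* was read 27689 to 60489 times per library and *Gja4* 182 to 369 times, whereas *Gjb5* had 0 to 2 reads in each CLH library. A library with 0 reads of a gene allows up to 3 reads, and such floors and the intervals on read ratios given here cover counting error only.

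*Med1* itself, the deleted gene, was 7.71 and 9.12 RPKM in Ctrl CLH, compared with 7.10 and 7.03 in cKO CLH. In CLT it was 4.83 for Ctrl CLT 1 and 8.71 for Ctrl CLT 2, against 9.15 and 8.96 in cKO CLT. *Med1* was thus below Ctrl in the libraries labelled cKO in CLH and above Ctrl in those labelled cKO in CLT. The deleted exons hold 239 of the 7589 bases of *Med1*, so the gene-level value barely checks the deletion, and all directions stated here are those of libraries labelled cKO against libraries labelled Ctrl.

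The Ctrl CLT libraries stood apart from each other. The median difference between replicates of a gene was 0.423 on the log2 scale in Ctrl CLT, against 0.103 for Ctrl CLH, 0.132 for cKO CLH and 0.122 for cKO CLT. The 6 hair shaft and inner root sheath markers (*Krt71* the most abundant) summed to 3370 RPKM for Ctrl CLT 1 and 9.44 for Ctrl CLT 2, against 9904 and 10866 in cKO CLT, with 4.32 to 6.94 in CLH. In fold terms Ctrl CLT 1 therefore lay nearer to the cKO CLT libraries than to its own replicate for these genes, and each Ctrl CLT library is given apart for the connexins.

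The labelled tissue was checked against markers. Basal epithelial markers (5 genes, *Krt5* the most abundant) summed to 561 to 660 RPKM in CLH, 1441 and 807 in Ctrl CLT, against 2009 and 2269 in cKO CLT. Ameloblast markers (6 genes, *Amelx* the most abundant) summed to 83713 and 33721 RPKM in Ctrl CLT, 12498 to 14312 in CLH, against 17.7 and 14.7 in cKO CLT. All 8 libraries thus held epithelial RNA, and ameloblast RNA was abundant in all but the cKO CLT pair. Markers of other tissues were present as well, with mesenchymal markers (6 genes, *Col1a1* the most abundant) at 2134 to 4097 RPKM in sum and leukocyte markers (4 genes, *Lyz2* the most abundant) at 89.0 to 161, so the libraries were not of epithelium alone. In such bulk tissue, fewer cells of a type and less RNA per cell cannot be told apart.

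Differences were tested with limma on log2(RPKM + 1) over the 14148 genes that reached 1 RPKM in at least 2 of the 8 libraries, which all 6 connexins did, and a gene was called where its adjusted p was under 0.05. *Gjb2*, *Gjb5* and *Gjb6* reached that level through CLT libraries alone. *Gjc3*, a further connexin tested below, reached it through the cKO CLT pair alone. For genes of low level, the added 1 makes this scale show less than the full fold. With 2 libraries in each group, exact permutations reach no p below 0.333. The effect of *Med1* loss was asked within each region, the difference between regions within each genotype, and the difference of the cKO effect between regions as an interaction over all 8 libraries.

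In CLT, *Gjc1* was lower in cKO, the beta connexins *Gjb2*, *Gjb5* and *Gjb6* were higher in both cKO libraries than in either Ctrl library without passing the test, and *Gja1* and *Gja4* overlapped between the genotypes. Of the 6 connexins, 1 was called lower and 0 higher, where 1.68% of all genes tested were called lower and 0.0777% higher. At an unadjusted p under 0.05 limma also gave 1 connexin lower and 0 higher, and voom on the recovered reads called 0 in either direction. Over all 14148 genes tested, 2314 were lower and 2802 higher unadjusted, and voom called 18 lower and 0 higher. The groups did not overlap for 4 of the 6 connexins, 3 above and 1 below Ctrl, against 72.2% of all genes tested. The median log2 fold change of the 6 was 1.42, beside -0.01 over all genes tested.

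*Gja1*, the most widely expressed connexin of the body, was 326 and 332 RPKM in Ctrl CLH, compared with 350 and 311 in cKO CLH. In CLT it was 430 RPKM for Ctrl CLT 1 and 733 for Ctrl CLT 2, against 552 and 500 in cKO CLT. Every CLT library was above every CLH library, and within CLT the cKO pair lay between the Ctrl libraries. The mean was 581 ± 214 RPKM in Ctrl CLT and 526 ± 37.0 in cKO CLT (SD, n = 2 each), which on the log2 scale is a difference of -0.09 ± 0.32 (SE, 95% confidence interval -0.97 to 0.78, adjusted p = 0.84). Its direction depended on which Ctrl library was used: cKO CLT was 1.22 times Ctrl CLT 1 and 0.718 times Ctrl CLT 2. Without Ctrl CLT 2 the log2 fold change was 0.29 (adjusted p = 0.098), and without Ctrl CLT 1 it was -0.48 (adjusted p = 0.017), with the lone Ctrl library assumed to vary like the cKO pair.

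Between regions, *Gja1* rose in CLT relative to CLH in cKO by 0.67 ± 0.11 on the log2 scale (SE, adjusted p = 0.00053), or 1.59-fold, and the call was lost with all 8 libraries in 1 fit (adjusted p = 0.055). In Ctrl the same difference was 0.77 ± 0.29 (adjusted p = 0.39), 1.15 without Ctrl CLT 1 (adjusted p = 0.047) and 0.39 without Ctrl CLT 2 (adjusted p = 0.023). The interaction of genotype and region was -0.10 ± 0.34 (adjusted p = 0.85), 0.28 without Ctrl CLT 2 but -0.48 without Ctrl CLT 1. The median log2 fold change of all genes from CLH to CLT was -0.134 in Ctrl and -0.178 in cKO, and median-of-ratios scaling brought it to 0.012 and 0.019. After that scaling the *Gja1* difference was 0.94 in Ctrl and 0.89 in cKO. Per 100 RPKM of the basal epithelial markers, *Gja1* was 47.2 to 59.4 in CLH, 29.9 for Ctrl CLT 1 and 90.8 for Ctrl CLT 2, against 27.5 and 22.0 in cKO CLT. The part of basal epithelial content in the *Gja1* values was not tested.

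*Gja4*, a connexin of arterial endothelium, was 6.60 and 6.19 RPKM in Ctrl CLH, compared with 5.58 and 7.19 in cKO CLH. In CLT it was 5.70 RPKM for Ctrl CLT 1 and 6.81 for Ctrl CLT 2, against 4.0 and 5.85 in cKO CLT. The genotypes overlapped in both regions, and all 8 values lay within a span of 0.71 on the log2 scale, the narrowest of the 6 connexins. The log2 fold change in CLT was -0.31 ± 0.24 (SE, 95% confidence interval -0.96 to 0.35, adjusted p = 0.39), and the interaction was -0.30 ± 0.28 (adjusted p = 0.47). Between regions *Gja4* differed by -0.33 ± 0.17 in cKO (adjusted p = 0.11), or -0.14 after median-of-ratios scaling, and by -0.03 ± 0.17 in Ctrl (adjusted p = 0.94), which turned to 0.12 after that scaling. In Ctrl this small difference also changed sign without Ctrl CLT 1 (0.08) or without Ctrl CLH 1 (0.01).

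Endothelial markers (7 genes, *Pecam1* the most abundant) summed to 82.8 to 89.1 RPKM in CLH, 65.2 for Ctrl CLT 1 and 102 for Ctrl CLT 2, against 64.8 and 65.2 in cKO CLT. Per 100 RPKM of them, *Gja4* was 6.75 to 8.35 in CLH, 8.74 for Ctrl CLT 1 and 6.68 for Ctrl CLT 2, against 6.16 and 8.96 in cKO CLT. On this scale too the *Gja4* values of the genotypes overlapped, but the members of the list went both ways, with 1 of the 7 above and 2 below both Ctrl CLT libraries in the cKO pair. The part of endothelial content in the *Gja4* values was not tested.

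*Gjc1*, a gamma connexin known from vascular smooth muscle and the cardiac conduction system, was 19.5 and 22.2 RPKM in Ctrl CLH, compared with 19.3 and 18.9 in cKO CLH. In CLT it was 14.8 RPKM for Ctrl CLT 1 and 17.1 for Ctrl CLT 2, against 2.61 and 2.14 in cKO CLT. The 2 cKO CLT libraries were far below the other 6, and unlike the beta connexins *Gjc1* was close in the 2 Ctrl CLT libraries, which differed 1.15-fold. The mean fell from 16.0 ± 1.61 RPKM in Ctrl CLT to 2.38 ± 0.332 in cKO CLT (SD, n = 2 each), which is 6.71-fold lower. The log2 fold change was -2.33 ± 0.18 (SE, 95% confidence interval -2.83 to -1.82, adjusted p = 0.037), and it rested on 2581 reads in Ctrl CLT and 383 in cKO CLT.

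Against Ctrl CLT 1 alone *Gjc1* was 6.23-fold lower in cKO CLT, and against Ctrl CLT 2 alone 7.18-fold lower. Its log2 fold change was -2.42 without Ctrl CLT 1 (adjusted p = 7.7e-05) and -2.23 without Ctrl CLT 2 (adjusted p = 0.00037). The call was lost without the filter on low values (adjusted p = 0.090), with voom (adjusted p = 0.057), without cKO CLT 1 (-2.43, adjusted p = 0.32) and without cKO CLT 2 (-2.23, adjusted p = 0.36). The interaction for *Gjc1* was -2.21 ± 0.18 (SE, adjusted p = 0.0027), and it was called under every alternative that has a test, with adjusted p from 5.8e-06 to 0.032.

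In cKO, *Gjc1* was 8.03-fold lower in CLT than in CLH (log2 fold change -2.58 ± 0.11, SE, adjusted p = 1.1e-07), or -2.39 after median-of-ratios scaling. In Ctrl the difference was -0.37 ± 0.15 (adjusted p = 0.42), or -0.20 after that scaling, with both CLT libraries below both CLH libraries. It was -0.27 without Ctrl CLT 1 (adjusted p = 0.18) and -0.46 without Ctrl CLT 2 (adjusted p = 0.049).

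Mural cell markers (6 genes, *Acta2* the most abundant) summed to 345 and 388 RPKM in Ctrl CLH, 271 and 355 in cKO CLH, 137 for Ctrl CLT 1 and 219 for Ctrl CLT 2, against 134 and 144 in cKO CLT. Per 100 RPKM of them, *Gjc1* was 5.33 to 7.11 in CLH, 10.8 for Ctrl CLT 1 and 7.81 for Ctrl CLT 2, against 1.95 and 1.49 in cKO CLT. The members of this list went both ways in CLT, with 1 of the 6 above and 4 below both Ctrl CLT libraries in the cKO pair, so the sum does not settle the mural content. Odontoblast and bone markers (5 genes, *Dspp* the most abundant) summed to 1101 and 1198 RPKM in Ctrl CLT, 958 to 1243 in CLH, against 1.07 and 0.892 in cKO CLT, where *Ibsp* was at 0 in both libraries. Per 100 RPKM of them *Gjc1* was 1.35 and 1.43 in Ctrl CLT but 244 and 240 in cKO CLT, and per 100 RPKM of the ameloblast markers 0.0177 and 0.0507 in Ctrl CLT but 14.8 and 14.6 in cKO CLT, so these lists were lower in cKO CLT by more than *Gjc1* was. The odontoblast and ameloblast markers thus moved in the direction of *Gjc1*, and the part of odontoblast, ameloblast or mural content in the *Gjc1* values was not tested.

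**Figure D1:**
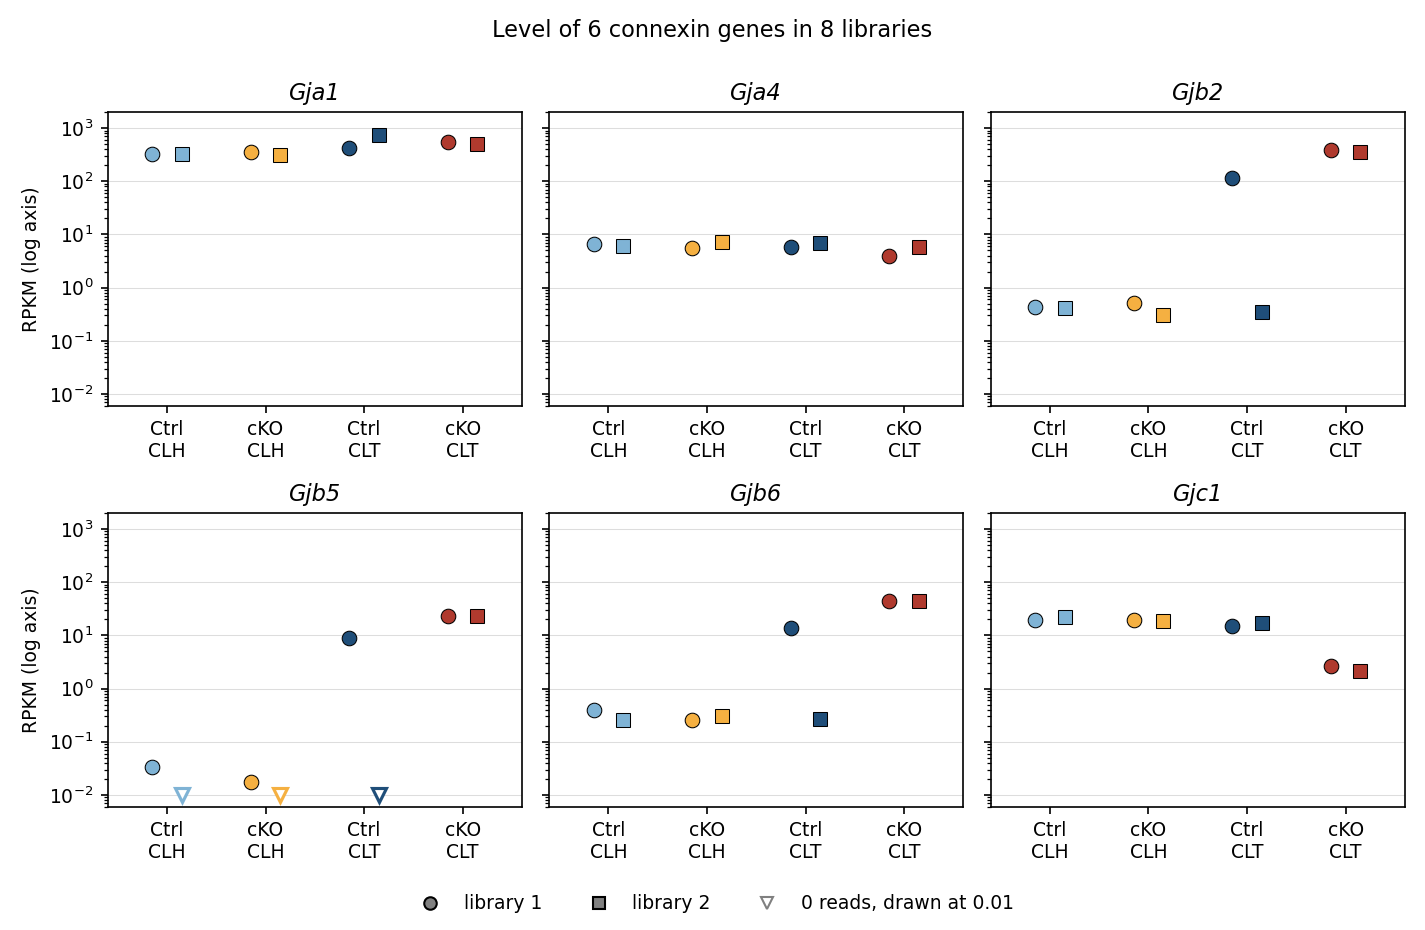
Level of each of the 6 connexins in RPKM (log axis) in the 8 libraries, 1 panel per gene and 1 point per library, with libraries of 0 reads drawn as open triangles at 0.01. *Gjb2*, *Gjb5* and *Gjb6* are high in Ctrl CLT 1 and both cKO CLT libraries (*Gjb2* at 113, 394 and 362), and *Gjc1* is low in the cKO CLT pair alone (2.61 and 2.14).

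*Gjb2*, the main beta connexin of cochlea and of thick or growing epidermis, was 0.435 and 0.418 RPKM in Ctrl CLH, compared with 0.505 and 0.310 in cKO CLH. In CLT it was 113 RPKM for Ctrl CLT 1 and 0.344 for Ctrl CLT 2, against 394 and 362 in cKO CLT, from 7973, 22 and, in the cKO pair, 50312 reads. Both cKO CLT libraries were above both Ctrl CLT libraries, Ctrl CLT 2 was as low as CLH, and the 2 Ctrl CLT libraries differed 329-fold. The mean was 56.9 ± 79.9 RPKM in Ctrl CLT and 378 ± 22.5 in cKO CLT (SD, n = 2 each). For *Gjb2* this was a log2 fold change of 4.93 ± 2.26 (SE, 95% confidence interval -1.3 to 11.17, adjusted p = 0.20), which did not pass the threshold.

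Set against each Ctrl CLT library, *Gjb2* in cKO CLT was 3.34 times Ctrl CLT 1 and 1099 times Ctrl CLT 2 (interval on the reads 726 to 1755). Without Ctrl CLT 1 the log2 fold change was 8.14, and without Ctrl CLT 2 it was 1.73. The size of the *Gjb2* difference therefore depended on which Ctrl CLT library was used. A fit with 1 Ctrl CLT library holds no spread between Ctrl CLT libraries, so it adds no call. The interaction was 4.96 ± 2.57 (SE, adjusted p = 0.21), 8.16 without Ctrl CLT 1 but 1.75 without Ctrl CLT 2.

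*Gjb6*, which shares channels with *Gjb2* in the cochlea and is known in the epidermis and hair follicle, was 0.387 and 0.255 RPKM in Ctrl CLH, compared with 0.251 and 0.301 in cKO CLH. Its CLT values were 13.5 RPKM for Ctrl CLT 1 and 0.273 for Ctrl CLT 2, against 43.4 and 45.3 in cKO CLT. Its libraries ranked as for *Gjb2*, with the cKO pair highest, Ctrl CLT 1 next and Ctrl CLT 2 at the level of CLH. The log2 fold change in CLT was 3.40 ± 1.24 (SE, 95% confidence interval -0.03 to 6.83, adjusted p = 0.14), with means of 6.87 ± 9.33 and 44.4 ± 1.35 RPKM (SD, n = 2 each). In cKO CLT *Gjb6* was 3.29 times Ctrl CLT 1 and 162 times Ctrl CLT 2. Without Ctrl CLT 1 the log2 fold change was 5.15, and without Ctrl CLT 2 it was 1.65. With all 8 libraries in 1 limma fit the adjusted p was 0.036. The interaction for *Gjb6* was 3.45 ± 1.42 (SE, adjusted p = 0.13), 5.20 without Ctrl CLT 1 but 1.70 without Ctrl CLT 2.

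*Gjb5*, a connexin of epidermis and placenta, was read 2 times in Ctrl CLH 1, 1 time in cKO CLH 1 and 0 times in the other CLH libraries. Its CLT values were 8.83 RPKM in Ctrl CLT 1 (440 reads) and 0 in Ctrl CLT 2, against 22.9 and 23.1 in cKO CLT. *Gjb5* was thus seen well above the floor in 3 of 8 libraries, again with both cKO CLT libraries above Ctrl CLT 1. The log2 fold change in CLT was 2.93 ± 1.17 (SE, 95% confidence interval -0.29 to 6.16, adjusted p = 0.16). In cKO CLT *Gjb5* was 2.6 times Ctrl CLT 1 and higher than Ctrl CLT 2 by at least 282-fold (lower limit of the two-sided 95% interval on the reads), or 347-fold taking 3 reads as the floor of that library. Without Ctrl CLT 1 the log2 fold change was 4.58, and without Ctrl CLT 2 it was 1.29. With all 8 libraries in 1 limma fit the adjusted p was 0.046. The interaction for *Gjb5* was 2.95 ± 1.33 (SE, adjusted p = 0.16), 4.60 without Ctrl CLT 1 but 1.3 without Ctrl CLT 2.

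In the regions of cKO mice the 3 beta connexins rose in CLT over CLH. *Gjb2* rose 928-fold between group means (log2 fold change 8.08 ± 0.10, SE, adjusted p = 1.6e-10) and *Gjb6* rose 161-fold (5.15 ± 0.10, adjusted p = 1.3e-09). *Gjb5* rose on the log2 scale by 4.57 ± 0.10 (adjusted p = 2.8e-09), and since CLH held 1 read against 2165 in CLT, the ratio of reads scaled to library totals was 2478 with a counting interval of 444 to 97924. After median-of-ratios scaling the log2 fold changes were 8.22 for *Gjb2*, 5.29 for *Gjb6* and 4.68 for *Gjb5*. Of the 6 connexins 4 were called higher in CLT than in CLH in cKO and 1 lower, where 28.9% of all genes tested were called higher and 45.1% lower. The 3 beta connexins among these passed the filter through CLT libraries alone, so their calls rest on the region in which they were high. The groups did not overlap for 5 of the 6, against 86.7% of all genes tested, and the median log2 fold change was 2.62, beside -0.18 over all genes.

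In Ctrl mice the regional values of the beta connexins rested on Ctrl CLT 1. The log2 fold change from CLH to CLT was 3.12 ± 2.28 for *Gjb2*, 1.62 ± 1.19 for *Gjb5* and 1.70 ± 1.26 for *Gjb6* (SE, adjusted p = 0.55 for each). Without Ctrl CLT 2 these were 6.32, 3.27 and 3.46. Without Ctrl CLT 1 *Gjb2* was at -0.09 and *Gjb6* at -0.05, while *Gjb5* was at or under the floor in every library that remained. In this comparison 0 of 6 connexins were called by limma in either direction and 0 had an unadjusted p under 0.05, voom called 0, and over all genes tested 0.00707% were called higher and 0% lower. Groups did not overlap for 2 of the 6, *Gja1* above and *Gjc1* below, against 52.0% of all genes tested, and the median log2 fold change was 1.20, beside -0.13 over all genes.

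In the interaction test 1 of 6 connexins was called lower (*Gjc1*) and 0 higher, where 9.58% of all genes tested were called lower and 8.05% higher. At an unadjusted p under 0.05 limma gave 1 connexin higher (*Gjb6*) and 1 lower, beside 2880 and 2495 of the 14148 genes, and voom called 0 higher and 1 lower, beside 794 and 1177. The median interaction of the 6 was 1.42, beside -0.01 over all genes. With Ctrl CLT 1 or Ctrl CLT 2 left out, the interactions of the 3 beta connexins had the sizes given above. Those fits hold no spread between Ctrl CLT libraries.

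Cornified epidermis and skeletal muscle markers, like the hair markers, moved with the beta connexins across the CLT libraries. Cornified epidermis markers (5 of 6 listed genes in the table, *Krt10* the most abundant, *Flg* not used here) summed to 7.29 to 16.2 RPKM in CLH, with *Ivl* at 0 in Ctrl CLH 1 and cKO CLH 1, and to 284 for Ctrl CLT 1 and 5.72 for Ctrl CLT 2, against 836 and 862 in cKO CLT. Skeletal muscle markers (5 genes, *Acta1* the most abundant) summed to 26.1 to 30.4 RPKM in CLH, with *Myh4* at 0 in Ctrl CLH 2, and to 638 for Ctrl CLT 1 and 48.0 for Ctrl CLT 2, against 1745 and 1921 in cKO CLT. Epidermal, hair and muscle markers alike were thus high in the 3 libraries in which *Gjb2*, *Gjb5* and *Gjb6* were high, and low in Ctrl CLT 2. Schwann and neural markers (3 genes, *Mbp* the most abundant) summed to 12.5 to 14.7 RPKM in CLH, 9.97 and 8.71 in Ctrl CLT, against 20.7 and 21.6 in cKO CLT. In sum they were thus high in the cKO CLT pair but, unlike the beta connexins, not in Ctrl CLT 1. The part of hair, epidermal, muscle or Schwann content in the beta connexin values was not tested.

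Per 100 RPKM of the hair markers, *Gjb2* was 3.36 in Ctrl CLT 1, compared with 3.98 and 3.33 in the cKO CLT pair. On the same scale *Gjb6* was 0.40 in Ctrl CLT 1, compared with 0.438 and 0.417 in cKO CLT, and *Gjb5* was 0.262, 0.231 and 0.212. Where both the markers and these genes were low, *Gjb6* was higher on this scale, at 2.90 in Ctrl CLT 2 and 3.62 to 7.12 in CLH, while *Gjb2* was at 3.64 and 4.90 to 9.68. Per 100 RPKM of the cornified markers, *Gjb2* was 39.9 for Ctrl CLT 1 and 6.02 for Ctrl CLT 2, against 47.1 and 42.0 in cKO CLT, and *Gjb6* was 4.74 and 4.78, against 5.19 and 5.26. *Gjb5* on that scale was 3.11 in Ctrl CLT 1, compared with 2.73 and 2.68 in cKO CLT.

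As lists tested in CLT, the hair markers had a median log2 fold change of 5.30 with 0 of 6 called by limma (0 at an unadjusted p under 0.05), the cornified markers 3.72 with 0 of 5 called (0 unadjusted) and the muscle markers 3.34 with 0 of 5 called (0 unadjusted). The basal epithelial median was 0.93 with 0 of 5 called (3 higher unadjusted), and the Schwann and neural median 0.97 with 0 of 3 called (2 higher unadjusted). The ameloblast median was -9.22 with 6 of 6 called lower, and the odontoblast and bone median -5.40 with 4 of 5 called lower. The endothelial median was 0.05, the mural -0.59, the mesenchymal -0.83 and the leukocyte -0.56, with 0 called in each. Unadjusted, 2 endothelial markers were lower, 1 mural higher and 2 lower, 1 mesenchymal higher and 3 lower, and 1 leukocyte marker lower. Among all 14148 genes 0.0777% were called higher and 1.68% lower (2802 and 2314 unadjusted), and the median was -0.01. By voom, 2 ameloblast markers and 1 odontoblast and bone marker were called lower, and 0 markers of the other lists were called.

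The order of the levels differed between regions and within Ctrl CLT. In all 4 CLH libraries and in Ctrl CLT 2 it was *Gja1*, *Gjc1*, *Gja4*, *Gjb2*, *Gjb6* and *Gjb5* from high to low. In Ctrl CLT 1 it was *Gja1*, *Gjb2*, *Gjc1*, *Gjb6*, *Gjb5* and *Gja4*, and in both cKO CLT libraries *Gja1*, *Gjb2*, *Gjb6*, *Gjb5*, *Gja4* and *Gjc1*. *Gjc1* thus stood next to *Gja1* in 5 libraries and was the lowest of the 6 in the cKO CLT pair. Among neighbours in the order, *Gjb2* and *Gjb6* did not separate in CLH, where *Gjb2* reached 0.310 to 0.505 RPKM and *Gjb6* 0.251 to 0.387. In Ctrl CLT 1 *Gjc1* and *Gjb6* were close, at 14.8 and 13.5 RPKM.

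As a share of the summed RPKM of the 6 connexins, *Gja1* made up 91.9% to 93.2% in CLH, 73.4% for Ctrl CLT 1 and 96.8% for Ctrl CLT 2, against 54.2% and 53.3% in cKO CLT. *Gjb2* took 19.3% for Ctrl CLT 1 and 0.0455% for Ctrl CLT 2, against 38.7% and 38.6% in cKO CLT. The *Gjc1* share was 5.14% to 6.16% in CLH, 2.53% and 2.26% in Ctrl CLT, against 0.256% and 0.228% in cKO CLT. In the cKO CLT libraries *Gja1* and *Gjb2* together thus made up most of the summed RPKM of these 6 genes. The sum of the 6 was highest there, at 1019 and 939 RPKM, against 587 and 757 in Ctrl CLT and 338 to 376 in CLH.

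The ratio of *Gjb2* to *Gjb6*, which are neighbours on chromosome 14, was 8.41 in Ctrl CLT 1, compared with 9.08 and 7.99 in cKO CLT. Where both were low, it was 1.26 in Ctrl CLT 2 and 1.03 to 2.01 in CLH. *Gjb2* over *Gjb5* was 12.8 in Ctrl CLT 1, compared with 17.2 and 15.7 in cKO CLT. *Gjb2* reached 0.263 of the *Gja1* level for Ctrl CLT 1 and 0.000470 for Ctrl CLT 2, against 0.713 and 0.724 in cKO CLT.

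Of 15 other connexin and pannexin genes, 5 were tested, and pannexins are related channel proteins that do not form gap junctions in most tissues. In CLT 0 of the 5 were called by limma in either direction, with 2 higher and 1 lower before adjustment (p under 0.05) and 0 called by voom. Of all 14148 genes 0.0777% were called higher and 1.68% lower, with 2802 and 2314 before adjustment. Their groups did not overlap for 5 of 5, 2 above and 3 below Ctrl, against 72.2% of all genes tested, and their median log2 fold change was -0.64, beside -0.01. Of the 10 not tested, *Gja10* and *Gjd2* were at 0 in every library, and no other exceeded 0.687 RPKM (*Gje1*).

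*Gja3*, a lens connexin, was 0.762 to 1.22 RPKM in CLH, 3.75 for Ctrl CLT 1 and 0.773 for Ctrl CLT 2, against 8.62 and 9.30 in cKO CLT (1.78 ± 0.53 on the log2 scale, SE, adjusted p = 0.11). *Gja5*, which joins *Gja4* in arterial endothelium, was 3.43 to 4.60 RPKM in CLH, 2.03 for Ctrl CLT 1 and 4.46 for Ctrl CLT 2, against 1.49 and 1.47 in cKO CLT (-0.71 ± 0.34, adjusted p = 0.21). *Gja5* thus lay below both Ctrl values in cKO CLT, where *Gja4* overlapped with Ctrl, and per 100 RPKM of endothelial markers it was 4.15 to 5.16 in CLH, 3.12 for Ctrl CLT 1 and 4.38 for Ctrl CLT 2, against 2.30 and 2.26 in cKO CLT. Without Ctrl CLT 1 the log2 fold change of *Gja5* was -1.14, and without Ctrl CLT 2 it was -0.29. For *Gja3* these values were 2.49 and 1.07.

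*Gjc3*, a connexin of myelinating glia, was 0.664 to 0.752 RPKM in CLH, 0.622 and 0.407 in Ctrl CLT, against 2.27 and 2.12 in cKO CLT. It passed the filter of 1 RPKM through the cKO CLT pair alone, so its calls rest on the group in which it was high. The cKO CLT pair was above the other 6 libraries, and the log2 fold change in CLT was 1.08 ± 0.19 (SE, adjusted p = 0.067), called at 1.18 without Ctrl CLT 1 and at 0.98 without Ctrl CLT 2. The interaction was 1.12 ± 0.19 (adjusted p = 0.018), the only call among the 5 in that test, and the call was lost when any library other than those of Ctrl CLT was left out, at 1.09 (without cKO CLT 1) to 1.16 (without cKO CLT 2), with adjusted p up to 0.11. Schwann and neural markers were high in the same libraries, and their part in the *Gjc3* values was not tested.

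*Panx1* was 12.4 to 14.6 RPKM in CLH, 22.9 for Ctrl CLT 1 and 14.7 for Ctrl CLT 2, against 11.8 and 11.1 in cKO CLT (-0.64 ± 0.25 on the log2 scale, SE, adjusted p = 0.16). *Panx3*, known from bone and teeth, was 16.9 to 19.6 RPKM in CLH, 5.97 for Ctrl CLT 1 and 20.2 for Ctrl CLT 2, against 2.14 and 2.10 in cKO CLT (-1.96 ± 0.59, adjusted p = 0.11). Both pannexins were lowest in cKO CLT, and their Ctrl CLT libraries lay in opposite order. For *Panx3* the log2 fold change was -2.77 with Ctrl CLT 1 left out and -1.16 with Ctrl CLT 2 left out. For *Panx1* it was -0.34 and -0.94. Between regions in cKO 2 of the 5 were called higher in CLT (*Gja3* at 2.24 and *Gjc3* at 0.91) and 2 lower (*Panx3* at -2.63 and *Gja5* at -0.94). Of all genes tested 28.9% were called higher and 45.1% lower. *Gjc3* passed the filter through its cKO CLT values alone, so its call here rests on the group in which it was high. *Panx1* was at -0.22 (adjusted p = 0.087), or -0.01 after median-of-ratios scaling. In Ctrl 0 of the 5 were called between regions by limma and 0 by voom, and 0 had an unadjusted p under 0.05, where 1 of all 14148 genes was called by limma, 0 by voom and 1860 were under 0.05 unadjusted.

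**Figure D2:**
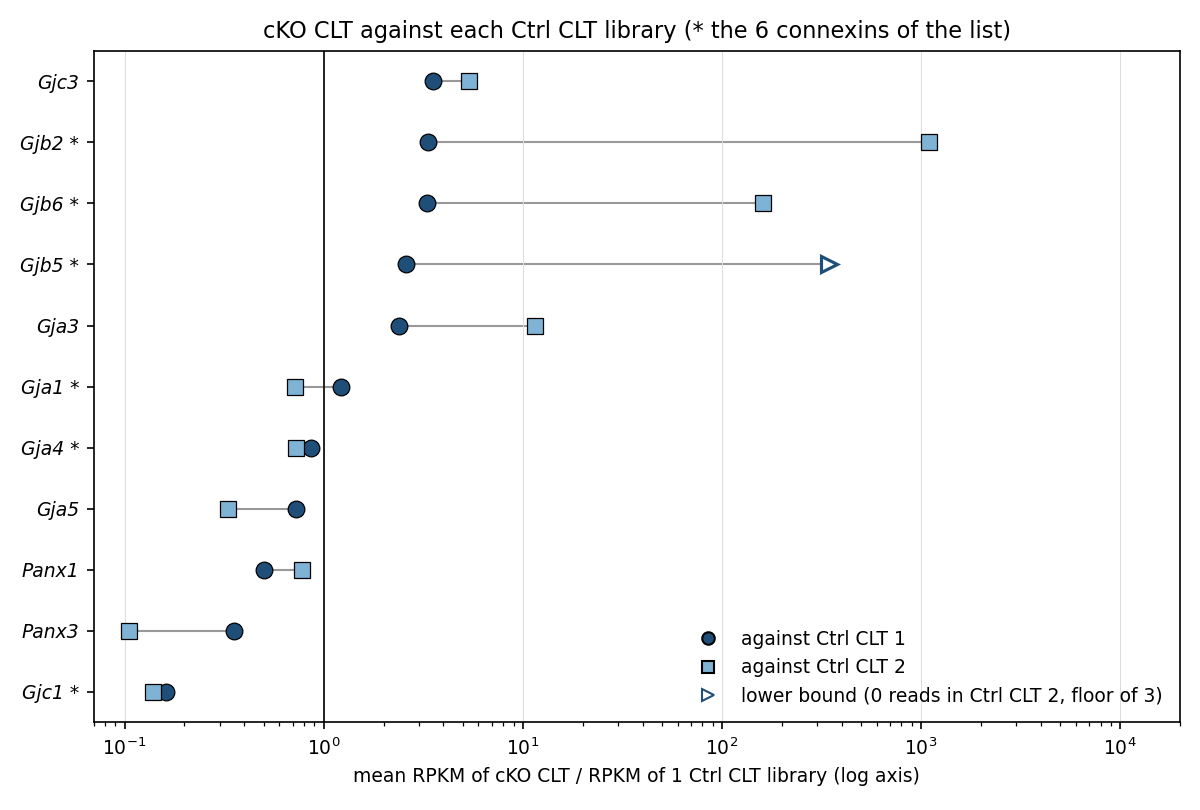
Mean RPKM of cKO CLT divided by the RPKM of each Ctrl CLT library (log axis), for the 11 connexins and pannexins tested, 1 point per Ctrl library, with the 6 connexins of the list starred. The triangle for *Gjb5* is a lower bound at a floor of 3 reads (347), and *Gjc1* lies at 0.161 and 0.139 while *Gjb2* lies at 3.34 and 1099.

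The genes are grouped on the chromosomes. In mm10, *Gja4* (chr4:127311421-127313978) and *Gjb5* (chr4:127354809-127358164) lie on the minus strand of chromosome 4, with 40.8 kb between them. *Gjb2* (chr14:57098602-57104702) and *Gjb6* (chr14:57123303-57133577) lie with *Gja3* within 97.9 kb on the minus strand of chromosome 14, with 18.6 kb between *Gjb2* and *Gjb6*. *Gja1* (chr10:56377300-56390419, plus strand) and *Gjc1* (chr11:102799478-102819686, minus strand) have no other connexin within 100 kb. On chromosome 4, *Gjb5* was high in Ctrl CLT 1 and cKO CLT while *Gja4* overlapped between the genotypes. In the chromosome 14 group all 3 genes had both cKO CLT libraries above both Ctrl CLT libraries, as had 5257 of all 14148 genes tested.

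Each of the 6 genes and *Gja3* has its whole coding sequence in 1 exon in GENCODE M21, and no other gene shares exon bases with them. The RPKM were computed over 3105 bases for *Gja1*, 1624 for *Gja4*, 2404 for *Gjb2*, 1704 for *Gjb5*, 2476 for *Gjb6* and 2906 for *Gjc1*, of which the coding sequence is 1146, 999, 678, 813, 783 and 1188 bases. The longest run of bases shared between any pair of these transcripts was 26 bases, between *Gja1* and *Gja4*, and for *Gjb2* and *Gjb6* it was 20 bases.

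Of 10 genes other than connexins within 100 kb of the 6, a window set after the values were seen, 6 were tested and 0 were called in CLT by limma. The cKO CLT pair was above both Ctrl CLT libraries for 2 of them, both near *Gjc1*: *Eftud2* (log2 fold change 0.39, adjusted p = 0.13) and *Kif18b* (0.89, adjusted p = 0.077). It was below both for 3 (*Adam11*, *BC003266* and *Dlgap3*), so that 5 of the 6 did not overlap, against 72.2% of all genes tested. Also near *Gjc1*, *Higd1b* was at 0.41 (adjusted p = 0.54) and *Adam11* at -0.50 (adjusted p = 0.20). Near *Gja4*, *BC003266* was at -0.36 (adjusted p = 0.20) and *Dlgap3* at -0.38 (adjusted p = 0.30).

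**Figure D3:**
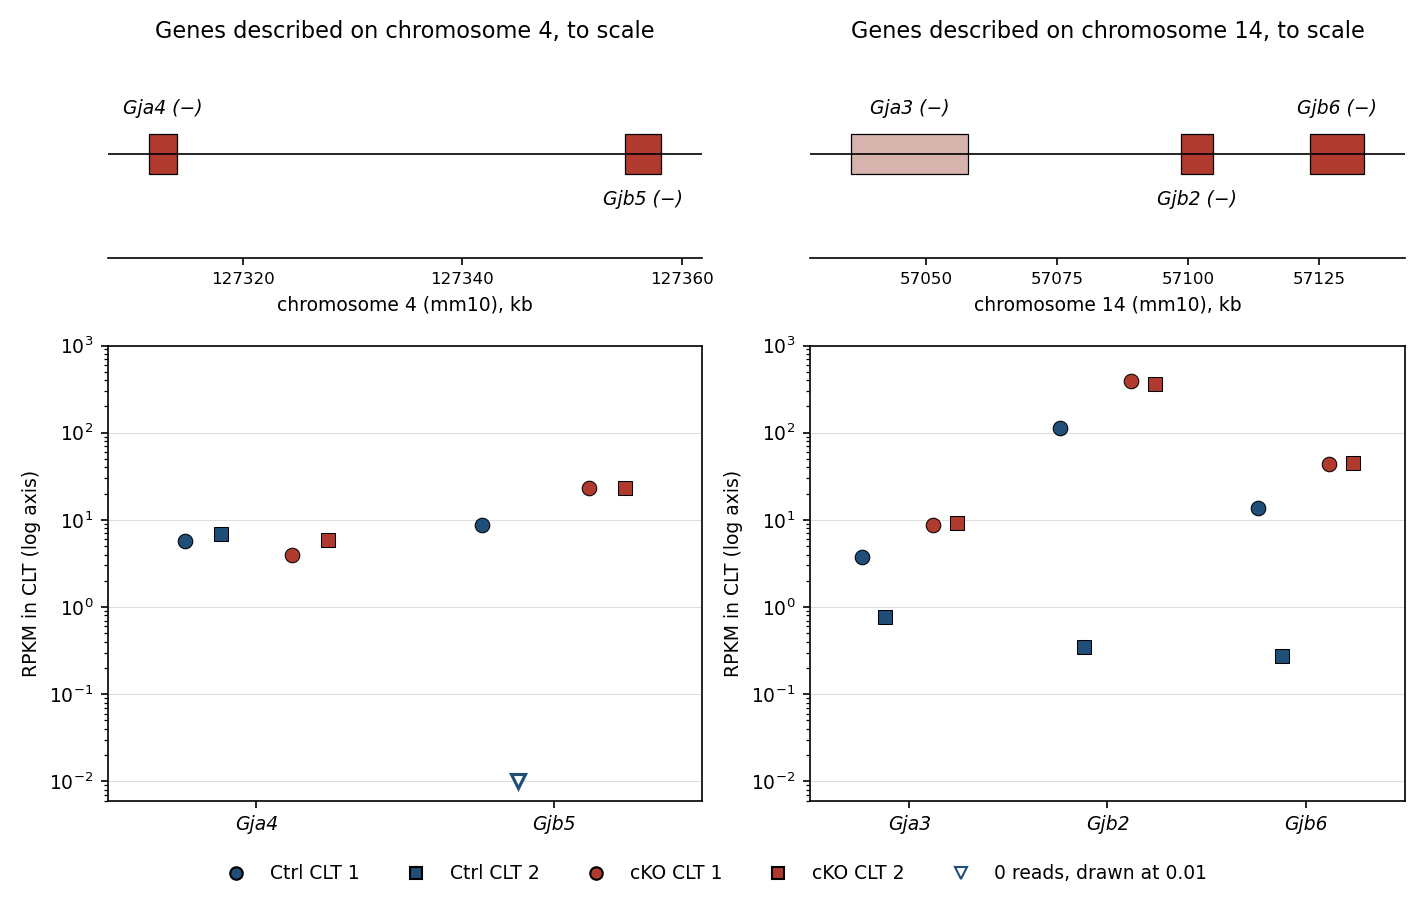
Maps to scale of *Gja4* and *Gjb5* on chromosome 4 (46.7 kb) and of *Gja3*, *Gjb2* and *Gjb6* on chromosome 14 (97.9 kb), with each gene drawn at its mm10 position, and the RPKM of its 4 CLT libraries (log axis), 1 point per library. *Gja4* is at 4.0 to 6.81 in all 4 libraries, whereas *Gjb5*, 40.8 kb away, is at 0 to 23.1.

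Since the beta connexins moved together, their promoters were compared over 250 bases before to 50 after the gene start, from RefSeq (GRCm38.p6), in which 5 of the 6 genes had an entry, all but *Gjc1*. Both strands were searched for the AP-1 motif TGANTCA, the GC box GGGCGG and the TATA box TATAAA, none of which overlapped another in these windows, and the matches are in capitals. Of 32851 promoters of this length, 7.81% held the AP-1 motif, 35.7% the GC box and 13.6% the TATA box, and the median GC content was 52.7%. The *Gjb2* window (chr14:57104653-57104952, minus strand) had 70.0% GC and 2 GC boxes, 211 and 126 bases before the start, of which the latter is on the other strand. The *Gjb6* window (chr14:57133562-57133861, minus strand) had 57.3% GC and none of the 3 motifs. The *Gjb5* window (chr4:127358115-127358414, minus strand) had 54.3% GC and 1 TATA box on the other strand, 243 bases before the start. *Gja1* (chr10:56377050-56377349, plus strand) is shown beside them as the connexin that was high in every library, with 47.7% GC and 1 AP-1 motif 19 bases before the start.
Gjb2: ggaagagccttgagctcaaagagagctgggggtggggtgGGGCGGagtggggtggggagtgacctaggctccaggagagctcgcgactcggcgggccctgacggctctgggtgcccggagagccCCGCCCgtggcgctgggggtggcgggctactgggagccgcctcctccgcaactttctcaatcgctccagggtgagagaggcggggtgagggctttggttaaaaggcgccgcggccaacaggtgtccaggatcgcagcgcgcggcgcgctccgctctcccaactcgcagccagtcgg
Gjb6: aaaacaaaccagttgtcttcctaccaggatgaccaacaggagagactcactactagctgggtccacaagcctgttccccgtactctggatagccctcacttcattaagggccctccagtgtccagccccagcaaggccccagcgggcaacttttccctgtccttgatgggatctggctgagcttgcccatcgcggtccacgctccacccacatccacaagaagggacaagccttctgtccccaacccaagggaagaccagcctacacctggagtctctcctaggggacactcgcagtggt
Gjb5: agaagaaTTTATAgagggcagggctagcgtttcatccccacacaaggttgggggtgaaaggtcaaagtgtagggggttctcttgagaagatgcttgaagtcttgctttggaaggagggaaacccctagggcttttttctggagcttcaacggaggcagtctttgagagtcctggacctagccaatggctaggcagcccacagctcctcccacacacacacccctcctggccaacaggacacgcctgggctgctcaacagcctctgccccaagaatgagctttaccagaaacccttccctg
Gja1: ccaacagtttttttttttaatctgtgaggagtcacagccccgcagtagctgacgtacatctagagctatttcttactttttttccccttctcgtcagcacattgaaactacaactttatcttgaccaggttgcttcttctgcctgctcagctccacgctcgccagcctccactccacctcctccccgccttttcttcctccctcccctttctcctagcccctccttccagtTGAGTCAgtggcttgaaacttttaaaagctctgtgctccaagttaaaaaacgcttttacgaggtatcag
The *Gja4* window (chr4:127313990-127314289, minus strand) had 62.0% GC and 1 GC box 79 bases before the start. None of the 3 motifs was in the windows of more than 1 of the 3 beta connexins. A match is a run of letters in the window and was not tested for binding.

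Partners and regulators of connexins were read from a list of 9 genes, all tested. In CLT 1 was called higher (*Cav1*) and 0 lower by limma, with 2 higher and 1 lower before adjustment (p under 0.05) and 0 called by voom, and the median log2 fold change was 0.11. Over all genes tested 0.0777% were called higher and 1.68% lower, with a median of -0.01. *Cav1*, the coat protein of caveolae, was 13.3 to 16.3 RPKM in CLH, 16.5 for Ctrl CLT 1 and 14.7 for Ctrl CLT 2, against 43.3 and 40.8 in cKO CLT. The cKO CLT pair was above the other 6 libraries, and *Cav1* rose on the log2 scale by 1.38 ± 0.15 (SE, 95% confidence interval 0.98 to 1.78, adjusted p = 0.047). That call was lost with median-of-ratios scaling (adjusted p = 0.052), without the filter (0.090), with voom (0.065), without cKO CLT 1 (1.33, adjusted p = 0.44) and without cKO CLT 2 (1.42, adjusted p = 0.46). The interaction for *Cav1* was 1.52 ± 0.16 (adjusted p = 0.0051) and was called under every alternative with a test.

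The highest log2 fold change of the partners in CLT was that of *Nov*, a secreted protein that binds connexins, and the lowest that of *Dbn1*, an actin-binding protein. *Nov* was 1.42 to 2.07 RPKM in CLH, 1.59 for Ctrl CLT 1 and 0.286 for Ctrl CLT 2, against 6.14 and 5.75 in cKO CLT (1.93 ± 0.39, SE, adjusted p = 0.075). *Dbn1* was 27.9 to 34.1 RPKM in CLH, 26.4 for Ctrl CLT 1 and 21.4 for Ctrl CLT 2, against 10.4 and 12.0 in cKO CLT (-1.02 ± 0.18, SE, adjusted p = 0.069). Neither overlapped between the genotypes in CLT, as was so for 7 of the 9 partners and 72.2% of all genes tested. Their interactions were called, at 1.99 ± 0.46 for *Nov* (adjusted p = 0.036) and -1.18 ± 0.20 for *Dbn1* (adjusted p = 0.017), and were lost under 8 and 6 of the alternatives, with adjusted p up to 0.14 and 0.093. These included every library left out other than those of Ctrl CLT, with 1.82 (without cKO CLH 2) to 2.17 (without cKO CLH 1) for *Nov* and -1.28 (without cKO CLH 1 or cKO CLT 2) to -1.08 (without cKO CLH 2) for *Dbn1*. In CLT the log2 fold changes of *Nov* and *Dbn1* were 2.43 and -0.88 without Ctrl CLT 1, and 1.42 and -1.17 without Ctrl CLT 2.

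Between regions in cKO, 5 of the 9 partners were called higher in CLT and 3 lower, beside 28.9% and 45.1% of all genes tested. The scaffold gene *Tjp1*, whose product binds connexin tails at the junction, was at 0.33, *Cav1* at 1.55, *Nov* at 1.35, *Ezr* at 1.12 and *Cnst* at 0.43. *Nedd4*, a ubiquitin ligase of connexins, was at -1.43, *Dbn1* at -1.43 and the kinase gene *Src* at -0.62. The call of *Tjp1* was lost under 5 alternatives, among them without cKO CLH 2 (0.21), cKO CLT 1 (0.32) or cKO CLT 2 (0.34), and that of *Cnst* without cKO CLT 2 (0.39). In Ctrl 0 of the 9 were called by limma and 0 by voom, with 1 higher at an unadjusted p under 0.05, beside 1 called by limma, 0 by voom and 587 higher unadjusted of all 14148 genes.

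Across the 8 libraries the levels of *Gjb2*, *Gjb5* and *Gjb6* ran in parallel, with Pearson correlations of log2(RPKM + 1) of 1.0 between each pair. *Gjc1* was correlated with them at -0.88, -0.90 and -0.91, *Gja1* with each at 0.43, *Gja4* with *Gjc1* at 0.66 and *Gja4* with *Gjb2* at -0.71. These values describe 8 points that share library and depth and that fall into 5 low and 3 high libraries for the beta connexins.

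Among all genes tested, those most like *Gjb2* over the 8 libraries were the hair keratin-associated protein genes *Krtap3-2*, *Krtap26-1* and *Krtap16-7*, each with a Pearson correlation of 1.0. For *Gjb5* they were *Krtap1-3*, *Tgm6* and *Krtap1-4*, and for *Gjb6* the hair keratin gene *Krt40*, *Gm10272* and the protease gene *Klk5*, also at 1.0. *Krtap26-1*, as an example, was 62.5 RPKM for Ctrl CLT 1 and 0 for Ctrl CLT 2, against 185 and 182 in cKO CLT. Among the genes most like *Gjc1* were *Satb1* (0.998) and *Ica1* (0.998). For *Gja1* the most alike were *Rasal2* (0.989), *Glul* (0.989) and *Obfc2a* (0.982), and for *Gja4*, whose levels spanned less than 1 on the log2 scale, none was named.

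In CLH, log2 fold changes between the genotypes ran from -0.12 to 0.00 for the 5 connexins that could be measured, all but *Gjb5*. *Gja1* differed on the log2 scale by 0.00 ± 0.09 (SE, adjusted p = 1.0), *Gja4* by -0.01 ± 0.14 (0.99), *Gjb2* by -0.02 ± 0.08 (0.95) and *Gjb6* by -0.05 ± 0.07 (0.85). *Gjc1* differed by -0.12 ± 0.08 (adjusted p = 0.74), and its 2 cKO libraries lay below both Ctrl libraries. The beta connexins were near the limit of detection here, with 63 reads of *Gjb2* in each genotype (ratio of reads scaled to library totals 0.968, 95% interval 0.672 to 1.40) and 43 reads of *Gjb6* in cKO against 50 in Ctrl (0.833, 0.541 to 1.28). *Gjb5*, with 2 reads in Ctrl and 1 in cKO, was at or under the floor in every library, and no fold is given. Signs changed for *Gja1* without cKO CLH 1 (-0.08) or Ctrl CLH 1 (-0.01), for *Gja4* without cKO CLH 1 (0.15) or Ctrl CLH 1 (0.03), for *Gjb2* without cKO CLH 2 (0.08) and for *Gjb6* without Ctrl CLH 1 (0.02). A difference in *Gjb2* or *Gjb6* within these intervals was not detectable at this depth.

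By limma 0 of the 6 connexins were called in CLH and 0 had an unadjusted p under 0.05, voom called 0, and over all genes tested 0% were called higher and 0% lower (1027 genes at an unadjusted p under 0.05, 0 by voom). Groups did not overlap for 1 of the 6 (*Gjc1*), against 38.7% of all genes tested, and the median log2 fold change was -0.02. Of the other connexins and pannexins tested in CLH, limma called 0 of 5 (0 unadjusted, 0 by voom). Of the partners it called 0 of 9 (1 higher unadjusted, 0 by voom), from *Cav1* at -0.14 ± 0.09 (SE, adjusted p = 0.73) to *Ezr* at 0.18 ± 0.06 (adjusted p = 0.69).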

How the data were processed

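The authors aligned the RNA-seq reads to mm10 and counted them per gene, and their deposited table gives RPKM per library for 23358 genes, with a length for each gene. The submitters' processing notes name Trim Galore 0.4.3.1, FastQC 0.72, STAR 2.6.0b-1, featureCounts 1.6.3 and DESeq2 2.11.40.2. The annotation, the strand setting and the total used for the RPKM are not given in the sources used here. Groups and replicate numbers were taken from the sample labels. Of the gene names 26 stood on several lines of the table (69 lines), and none of those genes is named here.

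RPKM multiplied by gene length came out as whole multiples of 1 step in each library (100.0% of values up to 100 reads, within 0.05 of a whole number), which gave each library's total (26591612 to 34420180 reads) and the reads of each gene. Genes of the table held 82.2% to 85.6% of a library's total. Reads were used for floors, ratios with their 95% intervals (SciPy 1.17.1, Python 3.11.15) and the voom alternative.

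Differences of log2(RPKM + 1) were tested with limma 3.58.1 in R 4.3.3 (eBayes with a variance trend, two-sided, Benjamini-Hochberg adjustment over 14148 genes with at least 1 RPKM in at least 2 of the 8 libraries, threshold 0.05). The fits were tested on simulated data in which all groups had the same spread, so the wider spread of Ctrl CLT was not simulated. The comparisons were cKO versus Ctrl in each region and CLT versus CLH in each genotype, each within its own 4 libraries, and the interaction over all 8. Labels call the libraries of a group separate samples, and p-values measure the spread between 2 of them. The alternatives were a pseudocount of 0.1, median-of-ratios scaling, no filter on low values, all 8 libraries in 1 fit, a replicate block, voom on the recovered reads, the log2 ratio of group mean RPKM without a test, and leaving out each library.

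Genes named were the 6 connexins, *Med1*, the tested members of a list of 15 other connexin and pannexin genes, the members of a list of 9 connexin partners and regulators that were called or had the highest or lowest cKO effect of a region, the most abundant gene and genes at 0 of 11 marker lists, and for each connexin that spanned at least 1 on the log2 scale up to 3 genes with the highest Pearson correlation. Some listed genes are not reported here, and lists, sums and counts of lists leave them out. Members and lists were chosen with earlier results of these data known. Gene structures came from GENCODE M21 and promoters from RefSeq (GRCm38.p6). No other gene shares exon bases with the 6 connexins or *Gja3*, and the longest run of bases shared between them was 26 bases. The ChIP-seq data and protein sequences were not analysed here.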

Additional observations from a re-analysis of the deposited data

Results flagged for a closer look

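By the interaction test over all 8 libraries, the cKO effect differed between CLT and CLH for 1 of the 6 connexins, 1 of 5 other connexins and pannexins and 3 of 9 partners tested, where 8.05% of all genes tested were called higher and 9.58% lower. It was lower in CLT for *Gjc1* (log2 difference -2.21, adjusted p = 0.0027) and *Dbn1* (-1.18, adjusted p = 0.017). It was higher in CLT for *Cav1* (1.52, adjusted p = 0.0051), *Nov* (1.99, adjusted p = 0.036) and *Gjc3* (1.12, adjusted p = 0.018). Of these, *Gjc3* passed the filter through the cKO CLT pair alone, the group in which it was high.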

How the results depend on the processing

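Of 348 connexin log2 fold changes recomputed under the alternatives, 333 kept their sign and 15 reversed, 292 kept their side of the threshold, 25 were newly past it, 5 were no longer past it, and 11 without a test moved by more than 1 SD. Of 365 for the pannexins, partners and other connexins, 365 kept their sign, 293 kept their side, 29 were newly past, 31 no longer past, and 12 moved by more than 1 SD. In CLT, 248 genes and 1 connexin differed between the genotypes, 3 and 0 without the filter, 6183 and 3 with all 8 libraries in 1 fit, and 18 and 0 with voom. Leaving out a library gave 11 (without cKO CLT 1) to 9838 genes (without Ctrl CLT 1) and 0 to 5 connexins, a lone library being assumed to vary like the others. In Ctrl, 1 gene differed between regions, 2 with a pseudocount of 0.1, 0 without the filter, 837 with all 8 libraries in 1 fit, 0 with voom, and 0 to 7537 with a library left out (0 to 5 connexins). In cKO, 5 connexins differed between regions, 4 to 6 under the alternatives, and median-of-ratios scaling changed the split over all genes from 4084 higher and 6384 lower to 5270 and 4884. The interaction, with 2494 genes and 1 connexin, gave 198 to 8932 genes and 1 to 5 connexins with a library left out. In CLH 0 genes were called by limma (1027 at an unadjusted p under 0.05) and 0 under any alternative with a test.

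Replicate numbers are shared by all groups, but no label says that they pair libraries. Deviations from the group means correlated across 14148 genes at 0.07 between Ctrl CLH and cKO CLH, 0.20 between Ctrl CLH and Ctrl CLT, 0.31 between cKO CLH and cKO CLT, -0.19 between Ctrl CLT and cKO CLT, -0.14 between Ctrl CLH and cKO CLT, and -0.11 between cKO CLH and Ctrl CLT, and no label ties a number to a litter. With the replicate block, 1744 genes and 3 connexins differed in CLT (*Gjb5* and *Gjb6* beside *Gjc1*, adjusted p = 0.046, 0.041 and 0.018), 5 genes between regions in Ctrl and 1448 genes in the interaction, and *Gja4* and *Panx1* were newly called between regions in cKO (adjusted p = 0.0061 and 0.037).

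The reversals lay at small values or rested on 1 Ctrl CLT library. With a library left out, *Gja1* in CLT ran from -0.48 to 0.29 and its interaction from -0.48 to 0.28. In CLH, *Gja1* ran from -0.08 to 0.09 (-0.01 without Ctrl CLH 1), *Gja4* from -0.17 to 0.15 (0.03 without Ctrl CLH 1), *Gjb2* from -0.12 to 0.08, *Gjb6* from -0.12 to 0.02 and the fitted value of *Gjb5*, at 3 reads in all, from -0.04 to 0.01. Between regions in Ctrl, *Gja4* was 0.12 with median-of-ratios scaling and ran from -0.14 to 0.08 (0.01 without Ctrl CLH 1), *Gjb2* from -0.09 to 6.32, *Gjb5* from -0.02 to 3.27 and *Gjb6* from -0.05 to 3.46. The reversed values and the changed counts have a cause that was not tested, except that fewer libraries or fewer tested genes enter some fits by construction. With 2 libraries in each group and Ctrl CLT libraries that differ, sizes of the beta connexin differences in CLT are bounded only by the values against each Ctrl library, and depth limits what can be seen of these genes in CLH.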
